A study of Mus musculus with 10 samples.

Results

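The genes described here supply, sense, clear or respond to retinoic acid in the mouse testis. They are Stra6, Rdh10, Aldh1a1 and Aldh1a2 (supply), Rara and Rarg (receptors), Cyp26a1 and Cyp26b1 (clearance) and Stra8 (germ cell response). They were chosen by gene symbol, and all 9 were found among the 17816 genes of the day 7 table and among the 20007 genes of the adult table. Expression was measured by RNA-seq in mice in which Rnf20, an E3 ubiquitin ligase gene for histone H2B, is deleted by Cre recombinase under the Amh promoter, which is active in Sertoli cells. The first comparison is between Sertoli cells at 7 days after birth from 2 control samples (labelled WT, Rnf20 Flox/Flox in the methods of the study) and 2 samples labelled RNF20 conditional knockout (Amh-Rnf20-/-). The second is between whole adult testis from 3 samples labelled WT and 3 labelled RNF20 conditional knockout. No sample was treated.

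The Cre driver limits both groups as a model of Rnf20 loss, because germ cells, Leydig cells and the other cells of the testis keep the gene. The study's methods describe isolation of the day 7 cells by enzymatic digestion and culture in medium with serum. Adherent cells were used after several passages, so the day 7 cells are not a sorted population. The labels give adult tissue as the growth condition of every sample, and the age of 7 days comes from the sample titles and the methods of the study. The groups of the adult RNA-seq come from its labels, and no further account of that sampling was used here. The p-values measure the spread between these samples.

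Retinoic acid is made from retinol, which enters the cell through the STRA6 receptor. Retinol dehydrogenases such as RDH10 oxidise it to retinaldehyde, and the retinaldehyde dehydrogenases ALDH1A1 and ALDH1A2 oxidise retinaldehyde to retinoic acid. Retinoic acid binds nuclear receptors such as RARA and RARG, which pair with retinoid X receptors on DNA, and the cytochrome P450 enzymes CYP26A1 and CYP26B1 degrade it. In the testis it drives spermatogonia to differentiate and enter meiosis, with Stra8 induced in germ cells, while RARA acts largely in Sertoli cells and RARG in spermatogonia.

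The promoters of both readouts of the signal, Stra8 and Cyp26a1, are shown with those of Rarb, a well-known direct target of the receptors, and Cyp26b1, the clearance gene with the higher level in adult testis. Each window runs from 250 bases before to 50 bases after a start site in RefSeq on GRCm38.p6 and is written in the direction of the gene. Capitals mark, on either strand, the hexamer AGGTCA bound by nuclear receptors or one of its variants, namely GGGTCA, as well as the form AGTTCA, or else the form GGTTCA.
Stra8, chr6:34920698-34920997, plus strand: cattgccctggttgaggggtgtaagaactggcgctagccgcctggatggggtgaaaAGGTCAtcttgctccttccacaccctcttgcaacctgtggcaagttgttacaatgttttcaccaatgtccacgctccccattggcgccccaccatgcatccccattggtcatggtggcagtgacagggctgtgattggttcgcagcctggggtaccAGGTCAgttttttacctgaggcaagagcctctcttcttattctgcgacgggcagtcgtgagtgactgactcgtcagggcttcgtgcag
Cyp26a1, chr19:37697558-37697857, plus strand: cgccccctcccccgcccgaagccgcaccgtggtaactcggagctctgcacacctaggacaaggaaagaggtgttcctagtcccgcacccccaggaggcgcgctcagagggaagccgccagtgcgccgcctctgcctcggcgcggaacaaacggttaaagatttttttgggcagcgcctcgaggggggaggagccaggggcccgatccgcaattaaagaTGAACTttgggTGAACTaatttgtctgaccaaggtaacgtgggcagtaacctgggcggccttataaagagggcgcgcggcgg
Rarb, chr14:16575427-16575726, minus strand: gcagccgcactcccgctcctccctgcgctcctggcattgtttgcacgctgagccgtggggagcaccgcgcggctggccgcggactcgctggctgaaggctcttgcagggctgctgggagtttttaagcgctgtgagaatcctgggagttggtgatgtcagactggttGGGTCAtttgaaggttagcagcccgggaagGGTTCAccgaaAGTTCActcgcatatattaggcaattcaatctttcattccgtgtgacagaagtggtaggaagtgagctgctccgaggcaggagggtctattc
Cyp26b1, chr6:84593761-84594060, minus strand: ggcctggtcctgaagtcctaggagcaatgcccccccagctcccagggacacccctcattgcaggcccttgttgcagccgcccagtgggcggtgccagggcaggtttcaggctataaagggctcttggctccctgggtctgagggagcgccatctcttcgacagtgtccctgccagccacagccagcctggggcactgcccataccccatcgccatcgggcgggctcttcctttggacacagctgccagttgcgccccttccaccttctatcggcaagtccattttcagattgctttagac

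Counted from the start site, the Stra8 window held AGGTCA at positions -194 and -38. The Cyp26a1 window held, on the opposite strand, a direct repeat with 5 bases between the hexamers, from position -32 to -16. The Rarb window held such a repeat from position -53 to -37 and a further GGGTCA at position -83. The Cyp26b1 window held none of these letters. At least 1 hexamer was present in 14358 of 32851 promoter windows of the same length (43.7%), and the direct repeat in 32 (0.0974%). For the genes described here, 8 of 9 had a window, and 7 of their 16 windows held a hexamer and 1 the direct repeat. These matches describe the sequence only.

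Day 7 samples held from 17477268 to 17705347 rounded counts each, and adult samples from 15431912 to 16574144. Rnf20 (Entrez 109331, chromosome 4, 49632005 to 49656887 of GRCm38.p6) was measured in FPKM (fragments scaled by transcript length and library size) at 16.64 and 16.01 in the day 7 controls against 10.25 and 12.58 after the deletion, a difference of -0.49 on the log2 scale (SE 0.12, adjusted p = 0.222, edgeR). In adult testis its values were 4.89, 3.32 and 4.09 FPKM in the controls against 9.16, 5.76 and 9.85 under the knockout label. The adult values go against the genotype label, with 0.12 on the log2 scale (SE 0.27, adjusted p = 0.688, edgeR). Whole testis includes cells outside the reach of the Cre driver, and their part in these values was not tested. Rnf20 RNA does not bear out the adult labels here, and the adult groups are named by label throughout. Other measures of the study run the way the labels say only in part. It reports less RNF20 protein in adult Amh-Rnf20-/- testes by Western blot, and no round or elongated spermatids by histology. The study also reports less Cldn11 RNA by quantitative PCR and less CLDN11 protein in such testes. Here Cldn11 had 34.88, 27.08 and 30.4 FPKM in the adult controls and 32.84, 226.62 and 293.45 under the knockout label. That is 1.69 on the log2 scale (SE 0.70, adjusted p = 0.0620, edgeR), so Cldn11 was not lower here. The cell type markers that moved with these labels are given below.

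Some libraries stood apart. The labelled knockout sample 1 in adult testis differed from the knockout samples 2 and 3 with a chi-square per degree of freedom of 88.1 and 118, compared with 21.4 between samples 2 and 3 and at most 17.6 between controls. On the mean log2(FPKM + 0.1) of spermatogonial markers it lay 2.25 below the controls, with Nanos3 and Sall4 at 0. Zbtb16 and Etv5 of the same list were higher in sample 1, at 1.78 and 12.01 FPKM, than in any control (at most 0.31 and 2.94). On the mean, samples 2 and 3 lay 0.04 and 0.46 above the controls. On the 12 Sertoli cell markers sample 1 lay 0.15 above the controls, and samples 2 and 3 lay 2.04 and 2.58 above. This mean of sample 1 joins markers that went opposite ways. Trf and Inha were at 141.1 and 765.73 FPKM there, against at most 7.06 and 106 in controls. Wt1, Amh and Gdnf were also above every control, and Cldn11 was within their range. Sox9, Fshr, Dhh, Rhox5, Aard and Inhbb were below every control. Adult values relative to the Sertoli cell markers use this mean for sample 1. At day 7 the chi-square was 34.3 for the Amh-Rnf20-/- pair and 2.65 for the control pair. The Amh-Rnf20-/- sample 1 lay 1.35 below the controls on the Sertoli cell markers and sample 2 lay 0.25 below. Values without these samples are given beside the results they move most.

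Cell type markers moved with the adult groups. All 9 spermatid markers were called lower, and their summed level ranged from 122777 to 191392 FPKM in controls and from 3.69 to 90.79 in the labelled knockout. Spermatocyte markers were called lower for 7 of 10 (summed 4997 to 5226 against 2.72 to 383.7 FPKM). Higher calls were made for 7 of 7 Leydig cell markers (4044 to 5640 against 65035 to 89587 FPKM), 7 of 7 macrophage markers (46.1 to 51.9 against 898 to 1194), 6 of 6 stromal fibroblast markers (38.6 to 51.5 against 1238 to 3310) and 5 of 6 endothelial markers (6.24 to 7.95 against 37.1 to 61.4). Among Sertoli cell markers 4 of 11 tested were called higher and 1 lower (summed 235 to 314 against 1059 to 1737). Spermatogonial markers gave 2 higher and 4 lower of 9 tested (262 to 293 against 24.8 to 395), and peritubular myoid markers 5 higher and 1 lower of 7 (297 to 370 against 219 to 457). In these bulk samples, fewer cells of a type and less RNA per cell cannot be told apart, and the part of cell composition in each result below was not tested. Several of these markers passed the filter on low values through 1 group only, so their counts are a description.

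The labelled Sertoli cells of day 7 held the Sertoli cell markers at a summed 724 to 790 FPKM in the controls and 219 to 540 in the Amh-Rnf20-/- samples, with Rhox5 between 0.22 and 0.64 FPKM. Peritubular myoid markers were at 2118 to 2248 against 3822 to 3901 FPKM, and stromal fibroblast markers at 1402 to 1439 against 2186 to 2672. Spermatogonial markers were at 192 to 204 against 137 to 143, Leydig cell markers at 149 to 156 against 205 to 301, macrophage markers at 13.2 to 15.6 against 13.3 to 26.9 and endothelial markers at 37.5 to 40.0 against 39.1 to 53.8. Spermatocyte markers summed to at most 10.46 FPKM and spermatid markers to at most 1.83. No marker was called by edgeR at day 7. Peritubular myoid and stromal fibroblast markers summed higher than Sertoli cell markers in every day 7 sample. The name Sertoli cells is therefore the study's and is kept as a label.

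In adult testis, Aldh1a1, Rara, Rarg and Cyp26b1 rose and Rdh10 and Aldh1a2 fell in the samples labelled knockout, while Stra6, Cyp26a1 and Stra8 did not pass the test. Thus 6 of 9 genes were called (edgeR's quasi-likelihood test, Benjamini-Hochberg adjusted p under 0.05), against 81.5% of the 15919 genes tested, with 40.9% called higher and 40.6% lower. At that background a call alone is common, and the sizes and the individual samples carry the description. On TMM-scaled counts the groups did not overlap for the same 6 genes, against 85.5% of all genes (42.4% higher, 43.1% lower). The study set stricter thresholds for its day 7 cells (more than 1 on the log2 scale in either direction, adjusted p under 0.001). With these on the adult samples, 3 of 9 remained (Aldh1a1, Cyp26b1 and Rdh10) against 46.7%. The median log2 fold change was 0.996 over the 9 genes and 0.01 over all genes tested. With total counts in place of TMM scaling the median over all genes was 0.87, with 8613 genes called higher and 4777 lower in place of 6503 and 6466, so FPKM ratios, which follow total counts, are larger for rises and smaller for falls than the fitted changes below.

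At day 7 edgeR called none of the 9 genes and no other gene (0.00% of 12880 genes tested). The study itself reports many differentially expressed day 7 genes, both higher and lower, at its stricter thresholds. Its methods do not name the test, and edgeR called 0 genes at those thresholds here. Rdh10, Aldh1a2, Cyp26a1 and Stra8 were lower and Rara and Cyp26b1 higher at an unadjusted p under 0.05, which is 6 of 9 against 15.5% of all genes tested (8.52% higher, 6.99% lower; 1997 genes by edgeR, 1983 by limma and 1619 by DESeq2). After adjustment, limma called 0 genes and DESeq2 called 581, Rdh10 among them. On TMM-scaled counts the groups did not overlap for 8 of 9 genes, 3 higher and 5 lower, against 51.0% of all genes (24.8% higher, 26.1% lower). All 9 genes passed the filter on low values in both tables, Cyp26a1 at day 7 only through the controls, and Stra8 in adult testis with 2 of the 3 labelled knockout samples at the level of the filter. Without Cyp26a1 the day 7 counts were 5 of 8 genes at an unadjusted p under 0.05, and 7 of 8 without overlap (3 higher, 4 lower).

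**Figure D1:**
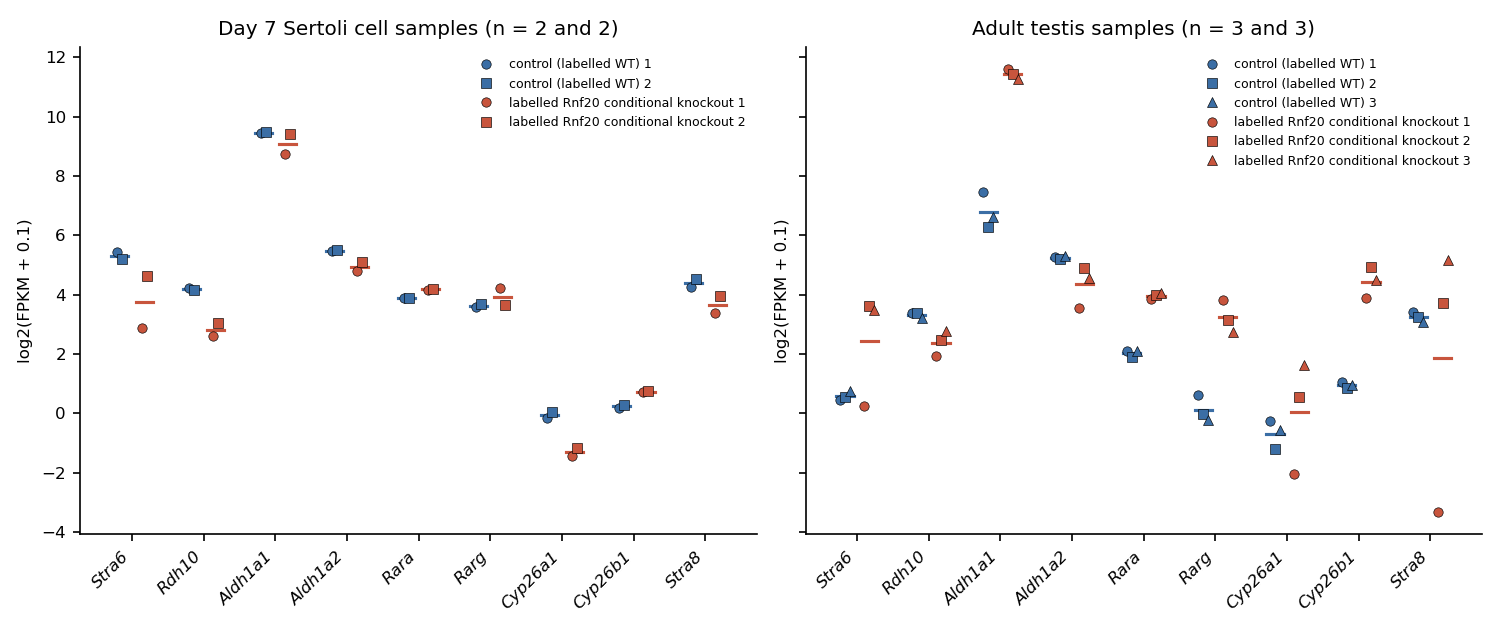
Level of each gene in each sample as log2(FPKM + 0.1), with day 7 Sertoli cell samples on the left and adult testis samples on the right. Points are single samples and bars are group means on the log2 scale. Aldh1a1 is the highest gene in all 4 groups, and Stra8 in the labelled knockout sample 1 of adult testis sits at the bottom of the axis with 0 FPKM.

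On the FPKM scale, which allows levels to be compared between genes, Aldh1a1 was highest and Cyp26a1 lowest by group mean in each of the 4 groups. In the day 7 controls the order was Aldh1a1, Aldh1a2, Stra6, Stra8, Rdh10, Rara, Rarg, Cyp26b1 and Cyp26a1, and no neighbours overlapped. In the Amh-Rnf20-/- cells the ranges of Rara, Stra6, Rarg and Stra8 overlapped from each to the next. In the adult controls Rdh10 overlapped Stra8 and Stra6 overlapped Rarg, and Cyp26b1 was 6th. In the labelled adult knockout Cyp26b1 was 2nd, with values overlapping those of Aldh1a2, Aldh1a2 overlapping Stra8, Stra8 overlapping Rara, Rarg overlapping Stra6 and Stra6 overlapping Rdh10.

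Of the 4 genes chosen for supply, Aldh1a1, the retinaldehyde dehydrogenase of Sertoli and Leydig cells, had the largest adult change. Aldh1a1 (Entrez 11668, chromosome 19, 20492583 to 20643463) had 175.28, 78.10 and 99.01 FPKM in the adult controls and 3098.57, 2765.64 and 2442.17 in the labelled knockout. The groups were far apart and the lowest knockout value was above the highest control. Its FPKM means were 23.6-fold apart, and its log2 fold change was 3.71 (SE 0.39, adjusted p = 0.00024, edgeR). The difference stayed between 3.51 and 4.04 when each sample was left out. On log2(FPKM + 0.1) the 3 labelled knockout samples lay 4.81, 4.64 and 4.46 above the controls, where the Leydig cell markers lay 4.996, 4.79 and 4.48 above and the macrophage markers 4.63, 4.45 and 4.28 above. Against the mean of the Sertoli cell markers in the same sample Aldh1a1 was 3.05 higher, with no overlap. The labelled knockout samples were at 8.90, 6.84 and 6.13 there, sample 1 the highest, against 4.68, 3.95 and 4.11 in the controls.

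In the day 7 samples Aldh1a1 had 689.20 and 707.99 FPKM in the controls and 422.93 and 687.86 in the Amh-Rnf20-/- samples. On TMM-scaled counts the second knockout sample fell within the range of the controls. This gave -0.29 on the log2 scale (SE 0.23, adjusted p = 0.612, edgeR), with 0.02 without the Amh-Rnf20-/- sample 1 and -0.67 without sample 2. Relative to the Sertoli cell markers Aldh1a1 was at 0.42 without overlap, at 0.23 without the Amh-Rnf20-/- sample 1 and at 0.62 without sample 2. Relative to the spermatogonial markers it was at 0.14 with overlap. Some reads of Aldh1a1 could be shared with its paralog Aldh1a7, since 151 of the 2309 windows of 50 bases in its transcript (6.54%) also occur there. Aldh1a7 itself rose in adult testis by 3.27 on the log2 scale (SE 0.50, adjusted p = 0.0012, edgeR), so the split of shared reads between the paralogs is uncertain. Its level was far below that of Aldh1a1, at 2.54, 6.27 and 9.23 FPKM in the adult controls and 121.79, 110.42 and 81.72 in the labelled knockout.

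Aldh1a2 (Entrez 19378, chromosome 9, 71215789 to 71296243), a dehydrogenase found largely in germ cells of the adult testis, went the other way in adult testis. It had 38.05, 36.58 and 39.19 FPKM in the controls and 11.66, 29.97 and 23.55 in the labelled knockout. All knockout values lay below all controls, and sample 1 was the lowest. It fell by 1.67 on the log2 scale (SE 0.32, adjusted p = 0.0030, edgeR) and by 1.26 without sample 1 (adjusted p = 6.12e-05). Relative to the Sertoli cell markers it was at -2.50 without overlap, and relative to the spermatogonial markers at -0.32 with overlap. The latter rests on single samples, with -0.76 and no overlap without sample 1 and 0.09 without sample 3. Relative to the spermatocyte markers it was at 3.63, or 2.08 without sample 1. The call was lost with total counts (-0.81, adjusted p = 0.0608) and with limma on log2(FPKM + 0.1) (-0.91, adjusted p = 0.0512), over a range of adjusted p from 7.77e-07 to 0.0608 among the alternatives that kept all samples.

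In day 7 cells Aldh1a2 had 43.98 and 45.17 FPKM in the controls against 27.62 and 33.81, with both Amh-Rnf20-/- samples below both controls. The difference on the log2 scale was -0.50 (SE 0.12, adjusted p = 0.208, edgeR), with sample 1 the lower of the knockout pair. Relative to the Sertoli cell markers Aldh1a2 was at 0.25 with overlap, at -0.15 without the Amh-Rnf20-/- sample 1 and at 0.66 without sample 2. Relative to the spermatogonial markers it was at -0.03 with overlap, and at -0.17 on log2(FPKM + 1). Dividing Aldh1a1 by Aldh1a2 in FPKM gave 4.61, 2.14 and 2.53 in the adult controls against 266, 92.3 and 104 under the knockout label. The day 7 ratio was 15.7 and 15.7 in controls against 15.3 and 20.3 in Amh-Rnf20-/- cells, which span the controls.

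Rdh10 (Entrez 98711, chromosome 1, 16105882 to 16132550), the retinol dehydrogenase, was lower in both comparisons, and the day 7 difference missed the adjusted threshold. In adult testis it had 10.21, 10.22 and 9.13 FPKM in the controls and 3.70, 5.39 and 6.70 in the labelled knockout, with no overlap. It fell by 1.77 on the log2 scale (SE 0.21, adjusted p = 0.00042, edgeR), and by 1.48 without sample 1 (adjusted p = 2.66e-05). Rdh10 lay between -1.98 and -0.82 on that scale over the alternatives that kept all samples. At day 7 it had 18.48 and 17.83 FPKM in the controls and 5.99 and 8.05 in the Amh-Rnf20-/- samples. Both knockout values were under the controls by far more than either pair differed. The fitted difference was -1.33 (SE 0.17, adjusted p = 0.132, edgeR), and DESeq2 called it at the same size (-1.33, adjusted p = 2.12e-06), within a range up to 0.270 over the alternatives that kept all samples. Against the Sertoli cell markers of the same sample Rdh10 was at -2.52 in adult testis, without overlap. Relative to spermatogonial markers it was at -0.35 with overlapping groups, at -0.95 with no overlap without sample 1, at -0.08 without sample 2 and at -0.02 without sample 3. Relative to spermatocyte markers it was at 3.61 without overlap, and at 1.89 without sample 1. At day 7 Rdh10 was at -0.86 relative to spermatogonial markers, without overlap. Relative to Sertoli cell markers it was at -0.58 at day 7, with -0.91 without the Amh-Rnf20-/- sample 1 and -0.24 without sample 2.

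Stra6 (Entrez 20897, chromosome 9, 58063793 to 58154004), the retinol receptor, split the adult knockout samples. It had 1.28, 1.36 and 1.59 FPKM in the controls and 1.08, 12.20 and 11.14 in the labelled knockout. Samples 2 and 3 were far above the controls and sample 1 was below all of them. Over all samples the log2 fold change was 1.63 (SE 0.79, adjusted p = 0.0976, edgeR). Without sample 1 it was 2.27 (adjusted p = 3.59e-06), and with total counts over all samples 2.52 (adjusted p = 0.0274), within a range from 0.0274 to 0.250 over the alternatives that kept all samples. The same 2 samples were high in Sertoli cell markers, and relative to those markers the groups overlapped with a difference of 0.27, which was 0.65 without sample 1 and -0.09 without sample 2. The adult gene most like Stra6 across the 6 samples was Inhbb, which is itself a Sertoli cell marker of the list.

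In the day 7 samples Stra6 had 42.87 and 36.80 FPKM in the controls and 7.31 and 24.86 in the Amh-Rnf20-/- samples, both below the controls and wide apart. The log2 fold change was -1.27 (SE 0.57, adjusted p = 0.378, edgeR). The remaining knockout sample gave -0.65 without sample 1 and -2.40 without sample 2. Sample 1 had the lower level of Stra6 and of the Sertoli cell markers, and relative to those markers Stra6 was at -0.75, with -0.42 without sample 1 and -1.08 without sample 2.

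**Figure D2:**
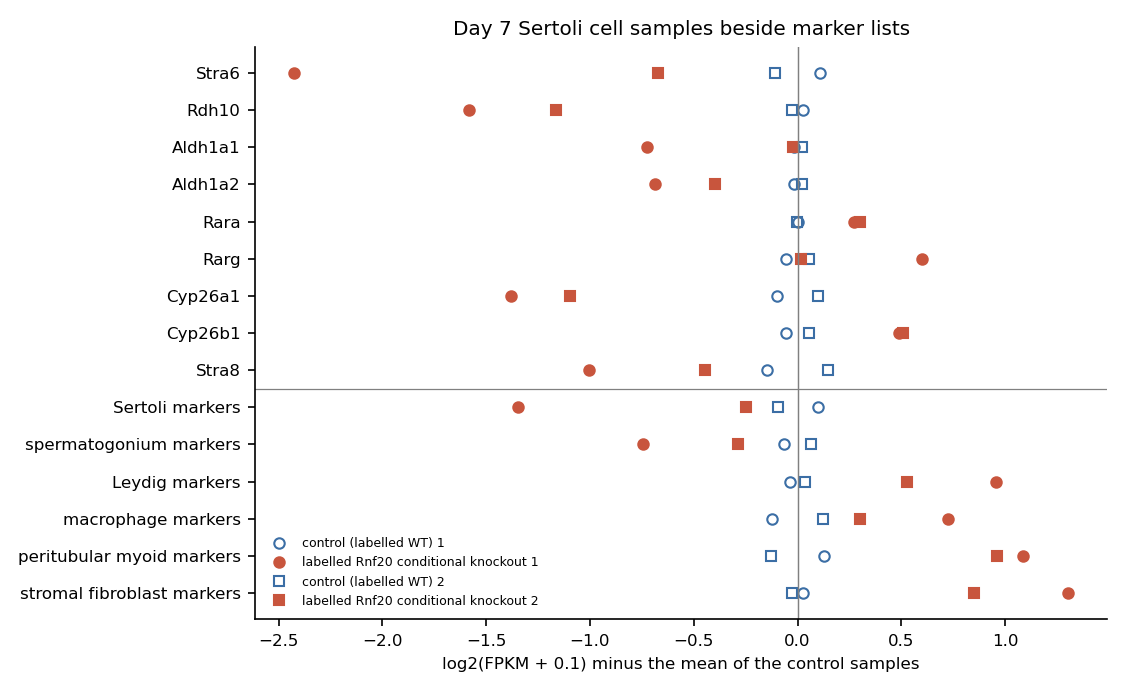
Day 7 Sertoli cell samples, each gene and each marker list as log2(FPKM + 0.1) minus the mean of the 2 controls (for lists, the mean over the markers). Open symbols are controls and filled symbols are the Amh-Rnf20-/- samples. Sample 1 lies 2.43 below the controls for Stra6 and 1.35 below for the Sertoli cell markers, and Rdh10 is at least 1.16 below in both samples.

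Both receptors were higher in adult testis. Rara (Entrez 19401, chromosome 11, 98927800 to 98974942) had 4.23, 3.65 and 4.15 FPKM in the controls and 14.26, 15.59 and 16.55 in the labelled knockout. The spread inside each group was small and the groups did not overlap. Rara rose by 0.996 on the log2 scale (SE 0.11, adjusted p = 0.000291, edgeR), and its FPKM means were 3.86-fold apart. It was higher under each of 3 scalings, by 0.80 with median ratios and 1.85 with total counts. Relative to the Sertoli cell markers the adult groups overlapped (difference 0.33, and -0.33 without sample 1). Relative to the spermatogonial markers Rara was at 2.50 without overlap in adult testis. Its day 7 values were 1.09 relative to Sertoli cell markers and 0.80 relative to spermatogonial markers, both without overlap. At day 7 Rara had 14.79 and 14.74 FPKM in the controls and 17.87 and 18.24 in the Amh-Rnf20-/- samples, which is 0.32 on the log2 scale (SE 0.08, adjusted p = 0.221, edgeR) without overlap.

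Rarg (Entrez 19411, chromosome 15, 102234938 to 102257522) had 1.42, 0.89 and 0.75 FPKM in the adult controls and 14.07, 8.81 and 6.62 in the labelled knockout. All knockout samples were several times above the controls, and sample 1, with the lowest spermatogonial markers, was the highest. Rarg rose by 2.45 on the log2 scale (SE 0.40, adjusted p = 0.0016, edgeR), with FPKM means 9.64-fold apart. Relative to the Sertoli cell markers the adult groups of Rarg overlapped (difference 1.53, and 0.52 without sample 1). Relative to the spermatogonial markers they did not overlap (difference 3.71). The labelled knockout samples were at 3.97, 1.02 and 0.18 there, against -1.56, -2.02 and -2.37 in the controls. At day 7 it had 11.78 and 12.69 FPKM in the controls and 18.56 and 12.37 in the Amh-Rnf20-/- samples, so that in FPKM only sample 1 stood clear. The fit gave 0.39 (SE 0.22, adjusted p = 0.464, edgeR), with 0.06 without sample 1 and 0.65 without sample 2. Relative to the Sertoli cell markers the Amh-Rnf20-/- samples 1 and 2 were at 1.14 and -0.54, against -0.96 and -0.66 in the controls. Relative to the spermatogonial markers they were at 3.11 and 2.07, against 1.78 and 1.75.

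The receptors can also be read against each other. In adult testis the ratio of Rara to Rarg was 2.98, 4.10 and 5.53 in controls against 1.01, 1.77 and 2.50 in the labelled knockout, with no overlap and no test made. The day 7 ratio was 1.26 and 1.16 in controls against 0.963 and 1.47 in Amh-Rnf20-/- cells, on both sides of the controls.

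Of the clearance enzymes, Cyp26b1 rose in adult testis and Cyp26a1 did not pass the test. Cyp26b1 (Entrez 232174, chromosome 6, 84571414 to 84593908) had 1.96, 1.72 and 1.85 FPKM in the adult controls and 14.80, 30.59 and 22.26 in the labelled knockout. Each knockout sample was well above each control. The rise was 2.70 on the log2 scale (SE 0.26, adjusted p = 0.000184, edgeR), FPKM means were 12.2-fold apart, and the value without sample 1 was 3.04. Relative to the Sertoli cell markers of the same sample Cyp26b1 was 1.89 higher without overlap, and relative to the spermatogonial markers 4.07 higher without overlap. At day 7 these values were 1.30 and 1.02, both without overlap. At day 7 Cyp26b1 had 1.03 and 1.12 FPKM in the controls and 1.55 and 1.57 in the Amh-Rnf20-/- samples, or 0.57 on the log2 scale (SE 0.18, adjusted p = 0.275, edgeR), and the pairs did not overlap.

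Cyp26a1 (Entrez 13082, chromosome 19, 37697738 to 37701536) rested on few counts. In adult testis it had 16, 8 and 14 counts in the controls (0.74, 0.33 and 0.57 FPKM) and 3, 29 and 61 in the labelled knockout (0.14, 1.37 and 3.02 FPKM). Sample 1 was below all controls and samples 2 and 3 were above them. The log2 fold change was 0.46 (SE 0.89, adjusted p = 0.645, edgeR), with 1.11 without sample 1 (adjusted p = 0.0431) and -0.33 without sample 3, and adjusted p lay between 0.214 and 0.978 over the alternatives that kept all samples. At day 7 it had 19 and 23 counts in the controls and 6 and 8 in the Amh-Rnf20-/- samples (0.80 and 0.93 against 0.27 and 0.35 FPKM). Both knockout samples were lower, with a log2 fold change of -1.53 (SE 0.38, adjusted p = 0.213, edgeR). The gene was tested at day 7 only because the controls passed the filter on low values, and limma on log2(FPKM + 1) put the difference at -0.51.

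The clearance enzymes were compared in the same way. The ratio of Cyp26b1 to Cyp26a1 was 1.29 and 1.20 in day 7 controls against 5.74 and 4.49 in Amh-Rnf20-/- cells. In adult testis it was 2.65, 5.21 and 3.25 in controls against 106, 22.3 and 7.37 in the labelled knockout, where the 106 of sample 1 rests on 3 counts of Cyp26a1. These ratios did not overlap between groups and were not tested.

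Stra8 (Entrez 20899, chromosome 6, 34920163 to 34939344), the gene that germ cells switch on in response to retinoic acid on the way to meiosis, had the largest standard error of the 9 genes in adult testis. In adult testis it had 212, 187 and 166 counts in the controls (10.58, 9.43 and 8.43 FPKM) and 0, 255 and 668 in the labelled knockout (0, 13.11 and 35.86 FPKM). Sample 1 had no read of it, which allows up to 3 counts (0.189 CPM, counts scaled to library size) there, and samples 2 and 3 were above all controls in FPKM. On TMM-scaled counts sample 2 was below the controls and sample 3 above. The log2 fold change of -0.13 (SE 1.32, adjusted p = 0.931, edgeR) turned to 0.78 with total counts (adjusted p = 0.609) and to 0.56 without sample 1 (adjusted p = 0.143). It was -1.40 with limma on log2(FPKM + 0.1) and -1.23 without sample 3, and adjusted p lay between 0.568 and 0.947 over the alternatives that kept all samples.

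Relative to the mean of the spermatogonial markers, Stra8 was at 1.26, 1.25 and 0.96 on the log2 scale in the controls and at -3.17, 1.59 and 2.60 in the labelled knockout. At day 7 Stra8 had 18.80 and 23.04 FPKM in the controls and 10.32 and 15.27 in the Amh-Rnf20-/- samples, both lower. The log2 fold change was -0.67 (SE 0.22, adjusted p = 0.290, edgeR), with -0.42 without the Amh-Rnf20-/- sample 1 and -0.97 without sample 2. Spermatogonial markers were 0.74 and 0.29 lower in the same knockout samples, and relative to them Stra8 was at -0.21, without overlap. The value was -0.13 without control sample 2, -0.29 without control sample 1 and -0.32 on log2(FPKM + 1).

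**Figure D3:**
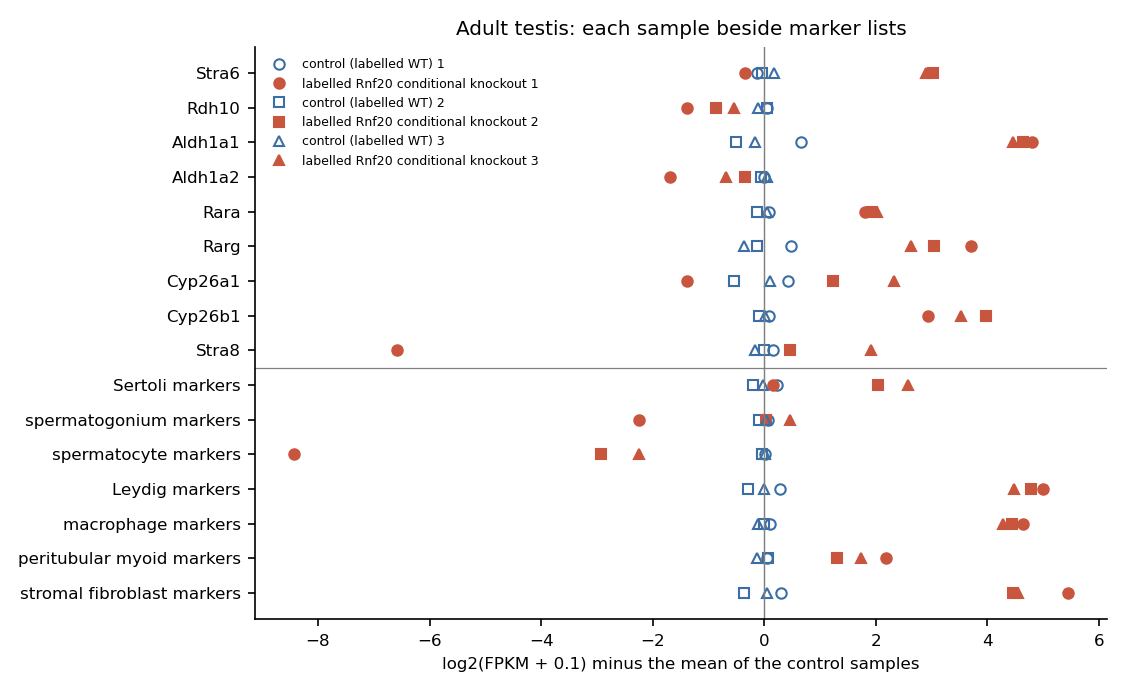
Adult testis samples, each gene and each marker list as log2(FPKM + 0.1) minus the mean of the 3 controls (for lists, the mean over the markers). Open symbols are controls and filled symbols are samples labelled knockout. Sample 1 lies below the controls for Stra6, Cyp26a1, Stra8 and the spermatogonial markers, where samples 2 and 3 lie at or above them.

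**Figure D4:**
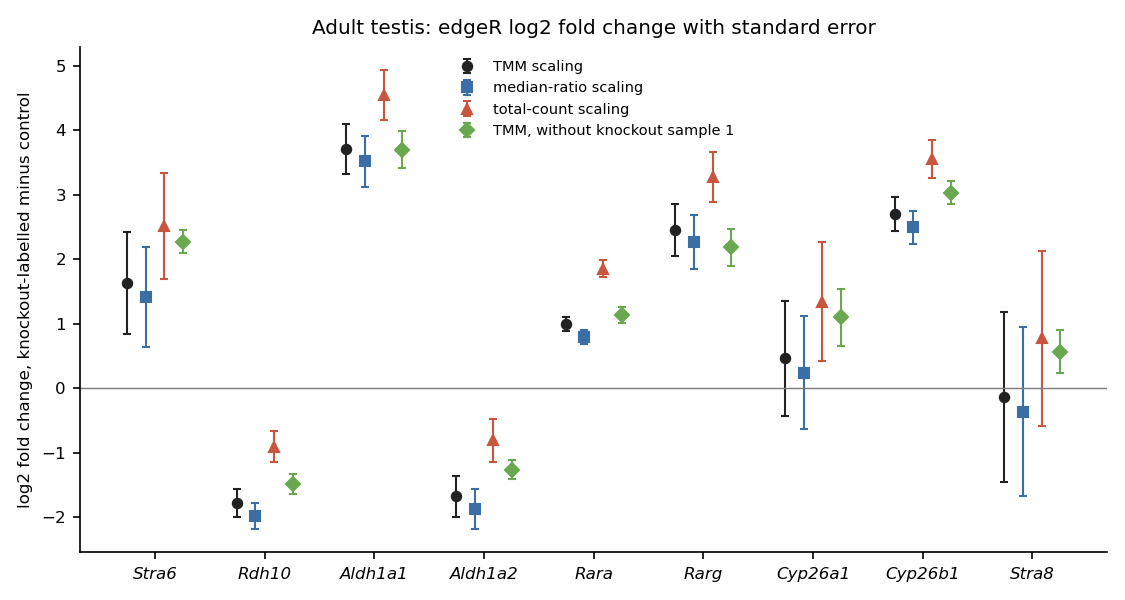
Log2 fold change from edgeR in adult testis (labelled knockout minus control) with its standard error, for each gene under 3 scalings and without the labelled knockout sample 1. Aldh1a1, Rara, Rarg and Cyp26b1 stay above 0 and Rdh10 and Aldh1a2 below 0 under all 4, and Stra8 changes sign.

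The other genes of the pathway were taken from lists by role. In adult testis 6 of 14 tested supply genes were called higher and 4 lower (median 0.26), beside 40.9% and 40.6% of all genes tested. Of the 4 lower, Lrat, Adh7 and Bco1 reached the level of the filter in all 3 controls and in at most 2 of the labelled knockout samples. Of the 6 higher, Rdh13 and Aldh1a3 reached it in all 3 labelled knockout samples and in at most 2 controls. These shares over all genes hold for each adult list, and nothing is read from a list's count against them. Adh1, an alcohol dehydrogenase able to oxidise retinol, rose by 4.67 on the log2 scale, from a mean of 9.38 to 428 FPKM (SE 0.46, adjusted p = 0.000181, edgeR). Bco1, which cleaves beta-carotene to retinaldehyde, fell by 5.80, from 22.4 to 0.733 FPKM (SE 0.54, adjusted p = 0.000156, edgeR), with 0.18, 0.94 and 1.08 FPKM in the labelled knockout, so it passed the filter on low values only with the help of the controls. Of the binding proteins, Fabp5, which carries retinoic acid and fatty acids in the cytosol, rose by 3.16 (13.4 to 221 FPKM, adjusted p = 0.000791). Crabp1 had 10.17, 12.22 and 8.83 FPKM in the controls and 0.35, 7.49 and 20.06 in the labelled knockout. Its log2 fold change was -1.07 (adjusted p = 0.358, edgeR), with sample 1 far below the other samples. Crabp2 was not tested, so 1 of 2 binding proteins tested was called.

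Among the receptors and cofactors 6 of 11 were called higher and 1 lower in adult testis (median 0.63), again beside 40.9% and 40.6% of all genes. Rxra, the partner of the retinoic acid receptors, rose by 1.61 (5.92 to 33.8 FPKM, adjusted p = 0.0013, edgeR) and Ppard, a receptor served by FABP5, by 2.87 (adjusted p = 7.99e-05). Rxrg was at a mean of 1.01 FPKM in the controls against 0.290, and it passed the filter on low values only through the controls (log2 fold change -2.63, adjusted p = 0.00209, edgeR). Rarb, whose promoter is given above, had 0.79, 0.44 and 0.34 FPKM in the controls and 0.26, 1.44 and 0.92 in the labelled knockout (log2 fold change -0.15, adjusted p = 0.846). Sample 1 was the lowest and below all controls, as it was for Stra6, Cyp26a1 and Stra8.

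In the germ cell response list, 1 of 6 tested genes was called higher and 3 lower in adult testis (median -1.90), which is 4 of 6 beside 81.5% of all genes. Of the 3 lower, Sohlh1 had 0.20, 1.84 and 3.44 FPKM in the labelled knockout, so it passed the filter on low values only with the help of the controls. Rec8, a meiotic cohesin, fell by 3.28 from 28.8 to 5.50 FPKM (adjusted p = 0.00344, edgeR). Kit, a receptor of differentiating spermatogonia that Leydig cells also express, rose by 3.51 from 1.94 to 40.1 FPKM (adjusted p = 7.58e-05). The clearance list held Cyp26c1 only, which was at most 0.10 FPKM in any adult sample and not tested.

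At day 7 edgeR called none of the listed genes (0 of 13 supply, 0 of 3 binding, 0 of 10 receptor and cofactor and 0 of 5 germ cell response genes tested), and Cyp26c1 was again too low to test. Calls by DESeq2 within these lists are not given here. Medians were 0.14, -0.27, -0.06 and -0.60 in that order, beside 0.00 over all genes. Aldh1a7 had 4.43 and 3.20 FPKM in the controls against 15.64 and 8.06 in the Amh-Rnf20-/- samples (log2 fold change 1.68, adjusted p = 0.206, edgeR), and Fabp5 was at a mean of 251 against 343 FPKM (0.49, adjusted p = 0.189). These pairs did not overlap.

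The other genes named by the rule at day 7 also missed the threshold in edgeR's test. The log2 fold changes were -1.03 for Adh4 (adjusted p = 0.292), -0.57 for Crabp2 (adjusted p = 0.361), 0.31 for Rxra (adjusted p = 0.334) and -0.34 for Nrip1 (adjusted p = 0.401). In the germ cell list they were -0.69 for Kit (adjusted p = 0.274) and -0.32 for Ythdc2 (adjusted p = 0.306).

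**Figure D5:**
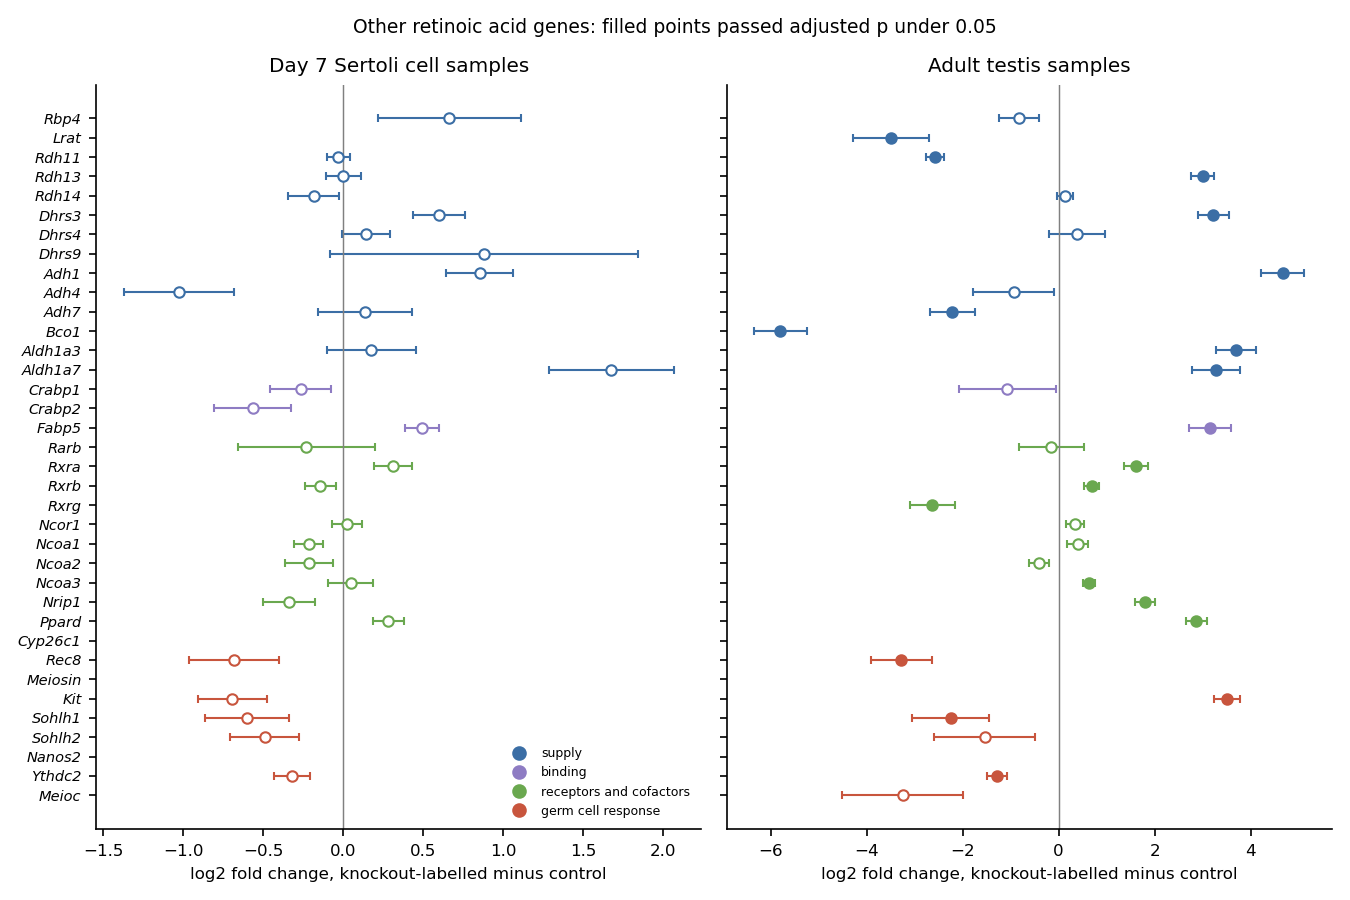
Log2 fold change from edgeR (labelled knockout minus control) with its standard error for the other retinoic acid genes, day 7 on the left and adult testis on the right, colored by role. Filled points passed an adjusted p under 0.05. No point is filled at day 7, and in adult testis Adh1 and Bco1 mark the extremes at 4.67 and -5.80. Genes without a point were not tested or not in the table, and 2 listed genes are not shown.

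The genes with the most similar adult profile were found by the root-mean-square difference of log2 TMM-scaled counts scaled to library size (CPM) over the 6 samples, after the mean of each gene was removed, among 15918 other genes. The nearest were Inhbb for Stra6 (0.11), Inca1 for Rdh10 (0.048), Serpinb8 for Aldh1a1 (0.10), Znrf2 for Aldh1a2 (0.11), Mis12 for Rara (0.032), Bdh1 for Rarg (0.12), Gm36028 for Cyp26a1 (0.21) and H2-K1 for Cyp26b1 (0.12). The second nearest were Wnk4, Zmynd19, Sting1, Tex10, Zfand5, B4gat1, Col9a3 and Cabp7 in the same order. Stra8 had no close neighbour, with Usp26 at 0.52 and Tktl1 at 0.58. None of the 9 genes was among the nearest pair of another.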

How the data were processed

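Poly(A) RNA of 10 samples was sequenced on the BGISEQ platform. The study's methods name more individuals per day 7 group than the samples analysed here. Alignment by the authors used HISAT (GRCm38.p6) and Bowtie2 (reference genes), followed by RSEM. Versions and strand handling are not given in the sources used here, and the same processing is assumed for the adult table from its columns. The deposited tables give each gene an estimated count (not normalized), FPKM values (scaled by length and depth) and TPM values (not used here). The adult table has 20 further columns without values.

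Counts were rounded. A gene was tested if FPKM reached 0.5 in 2 day 7 or 3 adult samples (12880 and 15919 genes), each table alone, with the quasi-likelihood test of edgeR 4.0.16, TMM scaling and Benjamini-Hochberg adjustment at 0.05. TMM factors were 0.984 to 1.02 at day 7, 0.711 to 0.761 in adult controls and 1.27 to 1.42 in the labelled knockout. SE is the log2 fold change over the root of the test statistic. Counting error weighs most on Cyp26a1, which had 3 to 61 counts in the adult samples. The floor of 3 counts covers counting error only. Alternatives were DESeq2 1.42.0, limma 3.58.1 on log2(FPKM + 0.1) and log2(FPKM + 1), other scalings and filters, the stricter thresholds of the study, the replicate number as a block and each sample left out, where a lone sample is assumed to vary like the other group.

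Named are the 9 genes, Rnf20, the highest gene and largest rise and fall of each pathway list, and the nearest 2 adult profiles. Rarb, Aldh1a7, Lrat, Adh7, Rdh13, Aldh1a3 and Sohlh1 in adult testis and single markers were named after their values were seen. The genes and lists were chosen with earlier results of these data known. Of the genes under this rule, 2 are not reported here. Meiosin was not found in either table. R was 4.3.3 and Python 3.11.15. Coordinates and promoters are from RefSeq (GRCm38.p6), and shared transcript windows from GENCODE transcripts.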

Additional observations from a re-analysis of the deposited data

How the results depend on the processing

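At day 7, DESeq2 called 581 genes (388 higher, 193 lower), 1 of the 9 genes among them (1 lower, Rdh10). Leaving out 1 sample gave 0 to 5049 genes (0 to 2707 higher, 0 to 2342 lower) and 0 to 8 of the 9 (0 to 2 higher, 0 to 6 lower): 2731 genes and 4 of the 9 without the Amh-Rnf20-/- sample 1, 5049 and 8 without sample 2, and 0 without either control. With 1 sample left out, Aldh1a1 at day 7 lay between -0.67 and 0.018 (the latter without the Amh-Rnf20-/- sample 1). In adult testis 1 of the 9 genes was called lower, in place of 2, with total counts (8613 genes called higher and 4777 lower) and with limma on log2(FPKM + 0.1) (8512 higher and 4887 lower), against 6503 and 6466 with TMM. The thresholds of the study gave 7434 genes (3661 higher, 3773 lower) and 3 of the 9 (2 higher, 1 lower). Stra8 turned to 0.78 with total counts and lay between -1.23 and 0.56 with 1 sample left out (0.56 without the labelled knockout sample 1), and Cyp26a1 between -0.33 (without sample 3) and 1.11 (without sample 1). Leaving out 1 adult sample gave 12141 to 14089 genes and 6 to 8 of the 9 genes, the 8 without sample 1. The causes of these changes were not tested. Stra6, Rdh10, Aldh1a2, Rara, Rarg and Cyp26b1 kept their direction in both tables under every alternative run. Cyp26a1 at day 7 could not be fitted with a mean FPKM of at least 1.

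With the replicate number as a block, 0 genes were called at day 7 and 12209 in adult testis, 6 of the 9 among them, and no call of the 9 genes changed. The labels do not say whether the numbers pair the samples, and the main fit used no pairing. Deviations from the group means correlated at 0.04 between samples of the same number at day 7. With 2 samples per group all such day 7 values are equal in size, so they cannot tell. In adult testis the values were 0.016, 0.017 and 0.025. Every adult sample correlated best with its own number, a hint from the data only. Stra6 was at 1.16 in adult testis and Stra8 at -1.16 under the block.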
